A study of Mus musculus with 6 samples.

Results

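The cytosolic ribosomal proteins are the protein components of the 40S and 60S subunits that translate nuclear-encoded mRNAs. Their probe sets were taken from the deposited annotated table by symbol: any probe set with a symbol made of Rpl or Rps and then a digit or the letter a, or of Rplp and a digit, with the S6 kinases left out. This gave 85 of the 22662 symbols on the arrays, measured by 214 of 45101 probe sets. Of the 85, 2 are pseudogene symbols. The 83 other symbols comprise 30 proteins of the small subunit, 42 of the large subunit, 3 of the P-stalk, and 8 paralogs or other symbols that the rule takes. The 75 subunit and stalk proteins are called canonical below.

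The ribosome holds nearly every one of these proteins in a single copy, so cells make them in matched amounts. Their mRNAs are abundant and begin with a 5′ terminal oligopyrimidine (TOP) tract, a C followed by further C and T (U in the RNA), through which mTORC1 signalling governs their translation. In haematopoiesis the red cell lineage is known for its sensitivity to a shortage of them: inherited loss of 1 copy of several of these genes causes Diamond-Blackfan anaemia, and reduced RPS14 contributes to the anaemia of the 5q- syndrome.

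The arrays measured RNA from bone marrow of leukaemic mice that carry NUP98/HOXD13, a fusion that drives myelodysplasia and leukaemia. The 3 samples labelled Gfi1b KO have Gfi1bfl/fl alleles, which Cre can delete, and the MxCretg transgene. The 3 wildtype samples have Gfi1b wt alleles and carry MxCretg and NUP98/HOXD13 as well. Mx-Cre is driven by the interferon-inducible Mx1 promoter and is active in many cell types, and the sources used here give neither the induction of Cre nor the age of the mice. The labels do not say that the samples came from separate mice, so p-values measure only the spread between these samples.

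Gfi1b is a zinc-finger repressor of transcription that red cell and platelet precursors need. Its only probe set was at log2 10.88, 11.63 and 11.67 in the samples labelled KO, against 5.83, 6.37 and 4.38 in wildtype samples, a log2 fold change of 5.86 (limma adjusted p = 0.00714). The level goes against a loss of the transcript. The sources used here do not place the probe set inside or outside the deleted part, so it does not check the deletion, and the samples are called labelled KO throughout. The marrows also differed in cell types. By limma at an adjusted p under 0.05, 1.53% of all probe sets rose and 1.4% fell. Of 12 measured granulocyte markers 8 fell, and the mean level of the list was 7.65, 5.93 and 4.24 in the samples labelled KO, against 11.30, 11.48 and 12.997 in wildtype samples. Of 8 monocyte markers 7 fell, and of 7 B cell markers 1. Of 13 erythroid markers 3 rose, with list means of 10.01, 9.69 and 8.18 in the samples labelled KO, against 6.97, 8.38 and 6.36 in wildtype samples. Of 7 pan-haematopoietic markers 2 fell, one of them Ptprc, which encodes the leukocyte antigen CD45 that maturing red cells lose.

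The cytosolic ribosomal proteins as a group lay at higher levels in the samples labelled KO, but the differences were small and almost none passed the test. The difference of means was positive in 198 of the 214 probe sets, or 92.5%, against 53.9% of all 45037 probe sets tested. The median log2 fold change was 0.43, a 1.35-fold difference, with quartiles of 0.27 and 0.60. Over all probe sets tested the median was 0.02. Every sample labelled KO lay above every wildtype sample in 135 members, or 63.1%, where the background was 12.5%. At levels from 8 to 12 this order held in 68.4% of members and 32.8% of other probe sets. At 12 or above it held in 79.8% of members and 27.3% of other probe sets. The opposite order was found in 2 members, against 10.2% of all probe sets.

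In limma, with Benjamini-Hochberg adjustment over all probe sets and a threshold of 0.05, 1 member was higher and 0 were lower, against 1.53% of all probe sets higher and 1.4% lower. The 1 call is Rps19bp1, which encodes a protein that binds Rps19 and is not itself a part of the ribosome. At an unadjusted p under 0.05, 82 members were higher and 4 lower, or 38.3% higher, where the background was 8.87% higher and 8.05% lower. At levels from 8 to 12 the share higher was 63.2% of members and 32.6% of other probe sets. At 12 or above it was 40.3% of members and 13.6% of other probe sets. No canonical protein passed the adjusted threshold by limma. At the brightest probe set of each gene, 27 of the 75 had an unadjusted p under 0.05, all higher. The smallest limma adjusted p at these probe sets was 0.0832, for Rpl21. Dimmer probe sets of Rpl21 and Rps12 had a limma adjusted p of 0.0564 and 0.0700.

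Much of the size of the shift rested on wildtype replicate 3. It was the lowest of the 6 samples in 178 members, against 16.8% of all probe sets, and in 74 of the 75 canonical genes. At levels from 8 to 12 it was the lowest in 100% of members and 49.2% of other probe sets. At 12 or above it was the lowest in 98.3% of members and 43.2% of other probe sets. Across the canonical genes its level was below the mean of wildtype replicates 1 and 2 by a median of 0.57 on the log2 scale (difference -0.57, range -1.17 to 0.04). Without it the median log2 fold change of the 214 members was 0.25, and 65 of the 75 canonical genes had a log2 fold change smaller by over 1.5 times. The direction did not depend on it: 74 of 75 canonical genes had a positive difference without wildtype replicate 3. Every sample labelled KO lay above both other wildtype samples in 59, where the background of that order without wildtype replicate 3 was 15.9%. The count with all samples was also 59. It could hardly change, because wildtype replicate 3 was the lowest of the 6 samples in 74 of the 75 genes. The same sample had the highest granulocyte list mean of the 6 and the lowest erythroid list mean. The part of cell type in the ribosomal protein levels was not tested, and in bulk marrow a change in the share of cells of a type cannot be told apart from a change of RNA per cell.

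**Figure D1:**
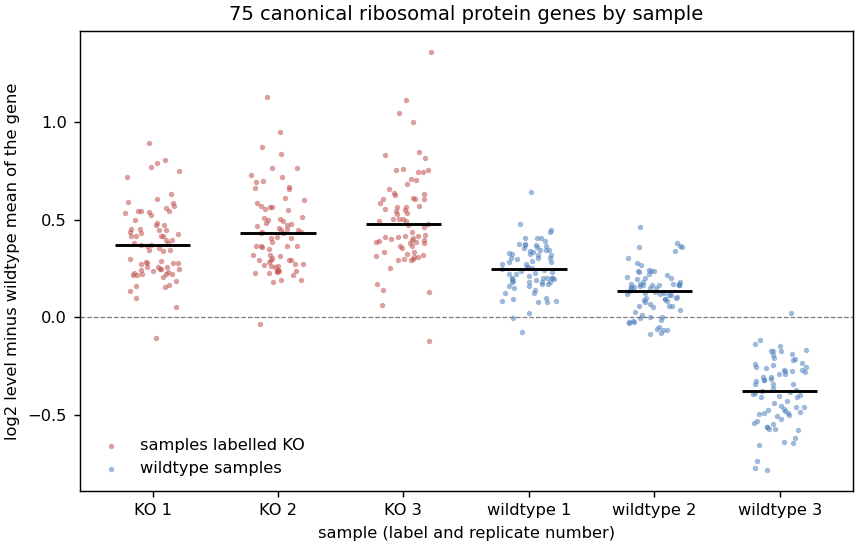
Level of each of the 75 canonical ribosomal protein genes (points) in each of the 6 samples as the log2 difference from that gene's wildtype mean, with the median of each sample as a black bar. The medians were 0.37, 0.43 and 0.48 in the samples labelled KO, against 0.25, 0.14 and -0.38 in wildtype samples, and wildtype replicate 3 lies apart from the others.

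In the canonical genes the samples labelled KO were close to each other, and the wildtype samples were not. The median over the canonical genes of the standard deviation was 0.07 among the samples labelled KO, against 0.35 among wildtype samples (n = 3 each), and the wildtype standard deviation was the larger in 75 of 75 genes. Over all probe sets the wildtype standard deviation was the larger in 40.8%. Among the wildtype samples replicate 3 lay apart, as the medians of 0.25, 0.14 and -0.38 in replicates 1, 2 and 3 show. Of 119 members at a mean log2 level of 12 or above, 117 had a positive difference, with a median of 0.43. All 38 members between 8 and 12 had a positive difference, with a median of 0.66, which was 0.27 for the 1699 other probe sets in that range. For the 44 other probe sets at 12 or above the median was 0.06. Of 19 members between 5 and 8, 14 had a positive difference, with a median of 0.32. At an unadjusted p under 0.05, 42.1% of these were higher and 15.8% lower. Of the members at 12 or above 40.3% were higher and 0% lower at that p. Over all probe sets 8.87% were higher and 8.05% lower. Of 38 members under 5, 29 had a positive difference, with a median of 0.14.

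**Figure D2:**
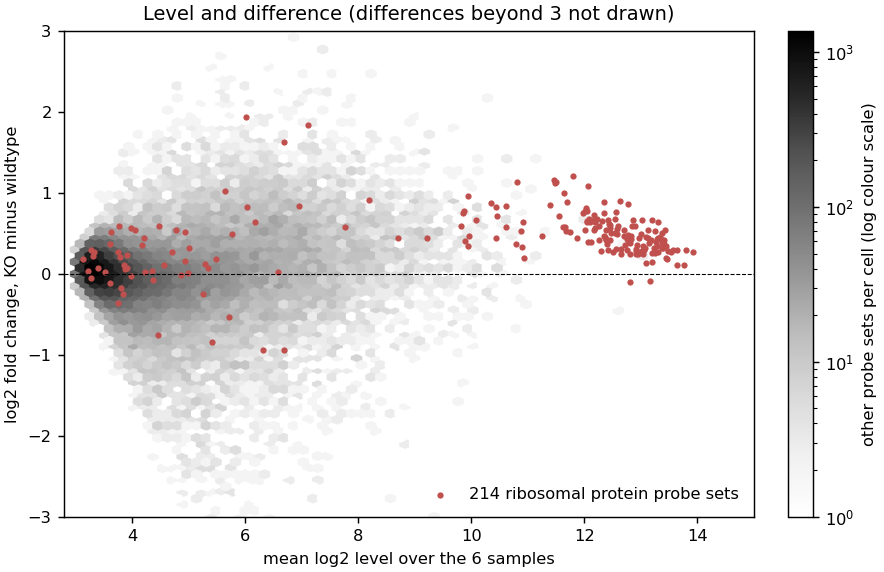
Log2 fold change, samples labelled KO minus wildtype, against the mean log2 level over the 6 samples, for the 214 ribosomal protein probe sets (red points) and all other probe sets (grey cells, darker for more probe sets). The red points at 12 or above centre on 0.43, and those between 8 and 12 on 0.66.

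Within the small subunit, 29 of 30 proteins had a positive difference, against 53.9% of all probe sets. At an unadjusted p under 0.05, 8 were higher, against 8.87% of all probe sets. The median log2 fold change of the subunit was 0.41 (0.21 without wildtype replicate 3). The highest was Rps19, a protein of the 40S head needed to mature 18S rRNA and the gene most often mutated in Diamond-Blackfan anaemia. Its level was 12.47, 12.60 and 12.63 in the samples labelled KO, against 12.33, 11.94 and 11.38 in wildtype samples. The groups did not overlap, and the log2 fold change of 0.68 ± 0.24 (SE, n = 3 each) did not pass the test (limma adjusted p = 0.210). Without wildtype replicate 3 it was 0.43.

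Rpsa, a 40S protein also known as the laminin receptor, had a log2 fold change of 0.66 ± 0.24 (SE), or 0.39 without wildtype replicate 3. Its level was 13.12, 13.23 and 13.23 in the samples labelled KO, against 12.71, 12.89 and 11.98 in wildtype samples. Rps12 had a smaller difference, 0.51, with less spread, at 13.54, 13.60 and 13.76 in the samples labelled KO, against 13.33, 13.06 and 12.99 in wildtype samples (limma adjusted p = 0.117). Its value moved little without wildtype replicate 3, to 0.44. Rps14, the 5q- syndrome protein, had one of the smaller differences. It was at 13.33, 13.38 and 13.41 in the samples labelled KO, against 13.27, 13.28 and 12.79 in wildtype samples. Its log2 fold change was 0.26 ± 0.16 (SE; limma adjusted p = 0.481) and 0.10 without wildtype replicate 3.

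Rps27a, of the 40S head, was the only canonical gene with a negative difference. It was at 13.11, 13.18 and 13.10 in the samples labelled KO, against 13.14, 13.27 and 13.24 in wildtype samples, so the groups overlapped (log2 fold change -0.09, limma adjusted p = 0.744). That probe set names several symbols, so its signal cannot be assigned to Rps27a alone. Rps16, Rps6 and Rps29 gave the probe sets with the highest mean signal, which is no ranking of their transcripts. Rps6 is the protein that S6 kinase phosphorylates. Their log2 fold changes were 0.27 for Rps16, 0.30 for Rps6 and 0.11 for Rps29, with limma adjusted p of 0.392, 0.387 and 0.726. The log2 fold changes were 0.16 for Rps16, 0.16 for Rps6 and 0.04 for Rps29 without wildtype replicate 3.

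Within the large subunit all 42 proteins had a positive difference, against 53.9% of all probe sets. At an unadjusted p under 0.05, 18 were higher, against 8.87% of all probe sets. The median log2 fold change was 0.45 (0.25 without wildtype replicate 3). Rpl14 had the largest difference of any canonical gene. It was at 12.29, 12.65 and 12.88 in the samples labelled KO, against 11.96, 11.86 and 10.75 in wildtype samples. The groups did not overlap, and the log2 fold change was 1.09 ± 0.34 (SE; limma adjusted p = 0.172), or 0.70 without wildtype replicate 3. The 6 Rpl14 probe sets had differences between 0.51 and 1.16.

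Rpl12, of the base of the P-stalk, was at 12.98, 13.06 and 13.23 in the samples labelled KO, against 12.57, 12.55 and 11.45 in wildtype samples. Its log2 fold change was 0.90 ± 0.31 (SE, limma adjusted p = 0.200), or 0.54 without wildtype replicate 3. Rpl17, near the exit of the peptide tunnel, had a log2 fold change of 0.89 ± 0.31 (SE), or 0.59 without wildtype replicate 3, and all 3 samples labelled KO lay above the wildtype samples. Rpl21 had the same size of difference with less spread, at 12.79, 12.85 and 12.74 in the samples labelled KO, against 12.21, 12.05 and 11.44 in wildtype samples. Its log2 fold change was 0.89 ± 0.21 (SE; limma adjusted p = 0.0832), and 0.66 without wildtype replicate 3. Rpl12, Rpl17 and Rpl21, like Rpsa and Rps12, are named for values seen in the data.

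The proteins Rpl5 and Rpl11 join 5S rRNA in a particle that enters the 60S subunit and, when free, binds Mdm2 and so stabilises p53. Rpl5 was at 13.56, 13.57 and 13.57 in the samples labelled KO, against 13.34, 13.27 and 12.95 in wildtype samples. Its log2 fold change was 0.38 ± 0.14 (SE, limma adjusted p = 0.218). Rpl11 was at 11.88, 11.91 and 11.94 in the samples labelled KO, against 11.71, 11.61 and 10.68 in wildtype samples, with a log2 fold change of 0.57 ± 0.27 (SE; limma adjusted p = 0.356). Without wildtype replicate 3 the log2 fold change was 0.26 for Rpl5 and 0.25 for Rpl11. In both genes the samples labelled KO lay together above all wildtype samples. Rpl41, the smallest of the proteins, had the lowest difference of the large subunit, 0.19 ± 0.14 (SE; limma adjusted p = 0.583), or 0.06 without wildtype replicate 3, and its groups overlapped.

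The P-stalk recruits and activates the GTPase elongation factors. Its 3 proteins had differences of 0.39 for Rplp0, 0.38 for Rplp1 and 0.44 for Rplp2, and in each the groups did not overlap. The differences were 0.25 for Rplp0, 0.19 for Rplp1 and 0.23 for Rplp2 without wildtype replicate 3. Rplp2 was at 13.25, 13.31 and 13.47 in the samples labelled KO, against 13.16, 13.06 and 12.49 in wildtype samples (limma adjusted p = 0.325). Rplp1 was at 13.57, 13.68 and 13.56 in the samples labelled KO, against 13.41, 13.43 and 12.85 in wildtype samples (limma adjusted p = 0.360).

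Canonical proteins were also grouped by structure and by disease. The 14 proteins of the 40S head had a median log2 fold change of 0.36 (0.19 without wildtype replicate 3), and the 7 measured proteins of the exit tunnel 0.36 (0.19 without it). For the 20 Diamond-Blackfan anaemia genes it was 0.35 (0.19 without it), and for the 55 canonical genes outside that list 0.43 (0.25 without it). All 20 Diamond-Blackfan genes had a positive difference, where the background was 53.9%. The groups did not overlap in 14 of them, each with the samples labelled KO above, where the background was 12.5%. By limma 0 of the 20 passed, with 4 at an unadjusted p under 0.05, all higher, against 8.87% of all probe sets higher. The 4 X-linked proteins had a median of 0.32 (0.20 without wildtype replicate 3). In 16 of the 75 canonical genes the groups overlapped, among them Rpl10, Rpl15, Rpl19, Rpl41, Rps28 and Rps29.

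**Figure D3:**
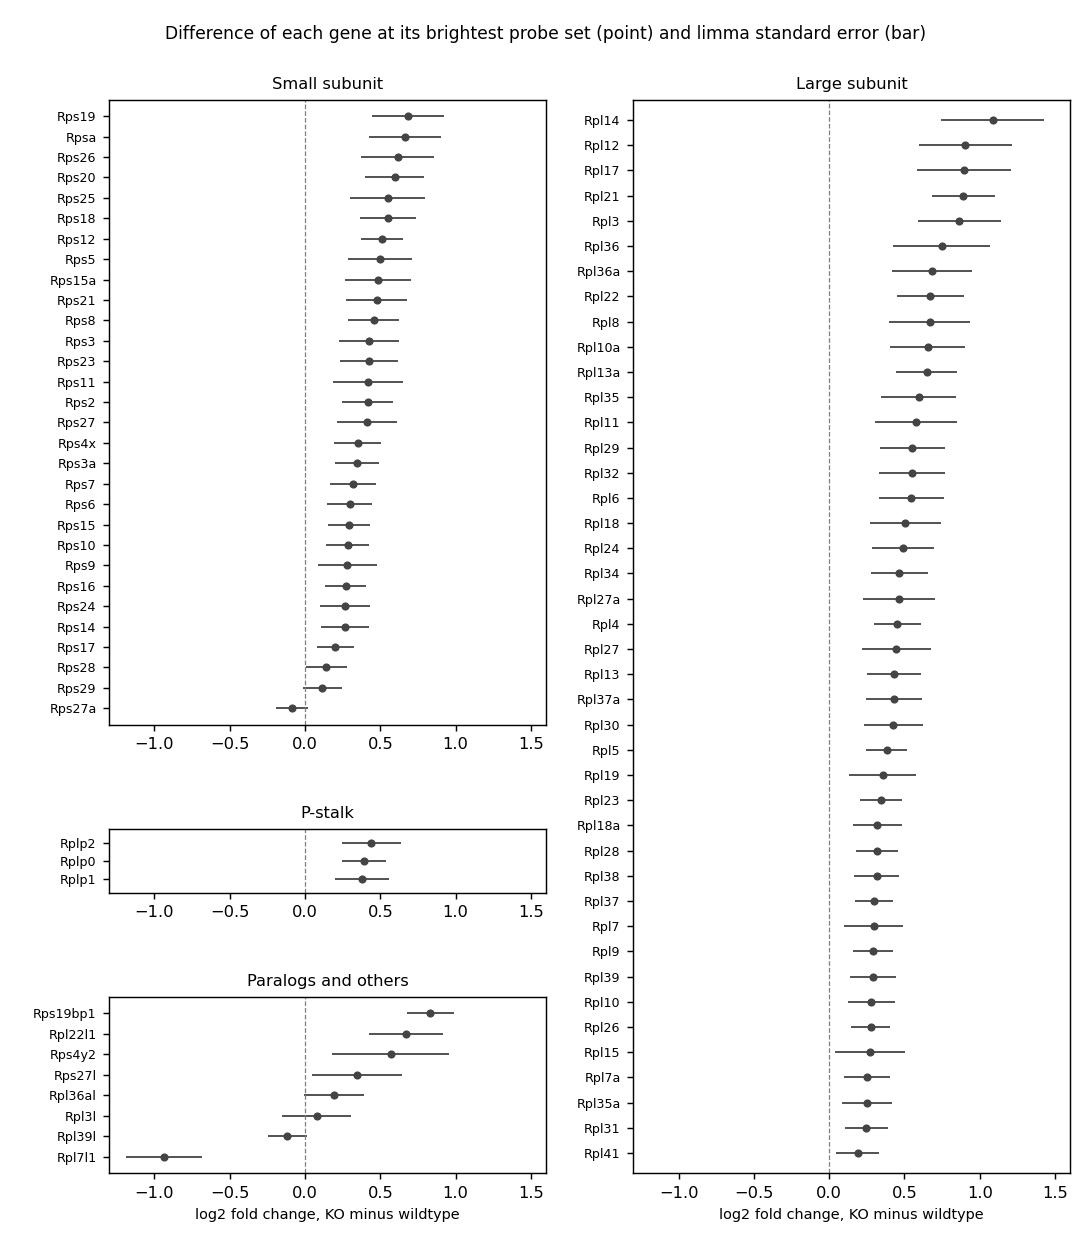
Log2 fold change, samples labelled KO minus wildtype, of each of the 83 genes at its brightest probe set (points) with the limma standard error (bars), by subunit and sorted by size. Rpl14 at 1.09 and Rpl7l1 at -0.94 are the ends of the range, and Rps27a is the only canonical gene below 0.

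The paralogs and other symbols outside the canonical set ranged from -0.94 to 0.83. Rps19bp1, the member that passed the test, was at 6.64, 6.41 and 6.31 in the samples labelled KO, against 5.80, 5.67 and 5.40 in wildtype samples. It rose by 0.83 ± 0.15 on the log2 scale (SE; limma adjusted p = 0.0450), and the groups did not overlap. The call did not hold without any 1 of the 6 samples, when limma adjusted p ran between 0.0655 and 0.144 while the log2 fold change stayed between 0.72 and 0.92. Without wildtype replicate 3 its log2 fold change was 0.72 (limma adjusted p = 0.117).

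Rpl7l1, a relative of Rpl7, had a negative difference. Its brightest probe set was at 6.63, 5.81 and 6.20 in the samples labelled KO, against 7.499, 6.85 and 7.10 in wildtype samples. The log2 fold change was -0.94 ± 0.25 (SE, limma adjusted p = 0.120). A second Rpl7l1 probe set was at 5.84, 6.15 and 5.54 in the samples labelled KO, against 7.06, 6.73 and 6.57 in wildtype samples. It also gave -0.94 (limma adjusted p = 0.0680). The groups did not overlap in either probe set, and these are the 2 members with every sample labelled KO below every wildtype sample. Without wildtype replicate 3 the brightest probe set gave -0.96. Rpl7 itself was at 12.42, 12.59 and 12.69 in the samples labelled KO, against 12.47, 12.49 and 11.86 in wildtype samples. Its log2 fold change was 0.30 (limma adjusted p = 0.524), or 0.09 without wildtype replicate 3. Whether the differences of Rpl7l1 and Rpl7 differ from each other was not tested.

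Rpl22l1, which Rpl22 protein is known to repress in mouse cells, was at 10.04, 10.73 and 10.51 in the samples labelled KO, against 10.12, 9.73 and 9.41 in wildtype samples, and the groups overlapped. Its log2 fold change was 0.67 ± 0.25 (SE; limma adjusted p = 0.234). Rpl22, a tumour suppressor in lymphoid leukaemia, also had 0.67 ± 0.22 (SE; limma adjusted p = 0.192), at 12.69, 12.75 and 12.83 in the samples labelled KO, against 12.41, 12.26 and 11.58 in wildtype samples. Both members of the pair thus had positive differences of the same size, and without wildtype replicate 3 they were 0.50 for Rpl22l1 and 0.42 for Rpl22.

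Rps27l, a p53-responsive relative of Rps27, had 0.35 (limma adjusted p = 0.637) beside 0.41 for Rps27 (0.372), with overlapping groups in both. The Rps27l value was 0.14 without KO replicate 2 and 0.62 without KO replicate 3. The probe set that names Rpl36al names Rpl36a too and gave 0.19, while the probe set of Rpl36a alone gave 0.68 (limma adjusted p = 0.259). The tissue-restricted Rpl3l and Rpl39l were near the floor, with differences of 0.08 and -0.12, and their counterparts Rpl3 and Rpl39 had 0.86 and 0.29 (limma adjusted p = 0.176 and 0.414). Rps4y2 was at 3.80, 3.75 and 5.23 in the samples labelled KO, against 3.70, 3.66 and 3.71 in wildtype samples. Its difference of 0.57 thus rests on KO replicate 3 and is 0.08 without that sample. Its X-linked relative Rps4x had 0.35 (limma adjusted p = 0.317). Without wildtype replicate 3 the log2 fold change was 0.14 for Rps27l and 0.24 for Rps27, 0.06 for Rpl36al and 0.39 for Rpl36a, 0.54 for Rpl3, 0.19 for Rpl39 and 0.20 for Rps4x.

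Probe sets of 1 gene did not always give 1 value. Of the 83 genes, 56 have several probe sets, up to 11 for Rps6, and 156 of the 214 probe sets carry an identifier ending that marks possible binding to related sequences. Of the 214 probe sets, 75 name several symbols, and so do the brightest probe sets of 34 of the 75 canonical genes, among them Rpsa, Rps12, Rps14, Rps16, Rps6, Rpl3, Rpl5 and Rpl22, so their signal cannot be assigned to 1 gene alone. All 11 Rps6 probe sets had positive differences, from 0.03 at the floor to 0.84. The widest spread was in Rps3, of the mRNA entry channel. Its brightest probe set gave 0.42 (limma adjusted p = 0.347), a second 1.63 at 7.23, 7.58 and 7.73 in the samples labelled KO, against 6.53, 6.21 and 4.89 in wildtype samples, and another near the floor -0.25. Rpl5 had 2 dimmer probe sets with 1.84 and 1.94, next to 0.38 at the brightest (limma adjusted p = 0.0916 and 0.0785 for the dimmer ones). The dimmer Rpl5 probe set with 1.94 was at 6.82, 6.70 and 7.45 in the samples labelled KO, against 5.47, 5.63 and 4.05 in wildtype samples. A dim Rpl7 probe set gave -0.84, opposite in sign to the bright ones. Which transcripts the dimmer probe sets report was not tested.

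**Figure D4:**
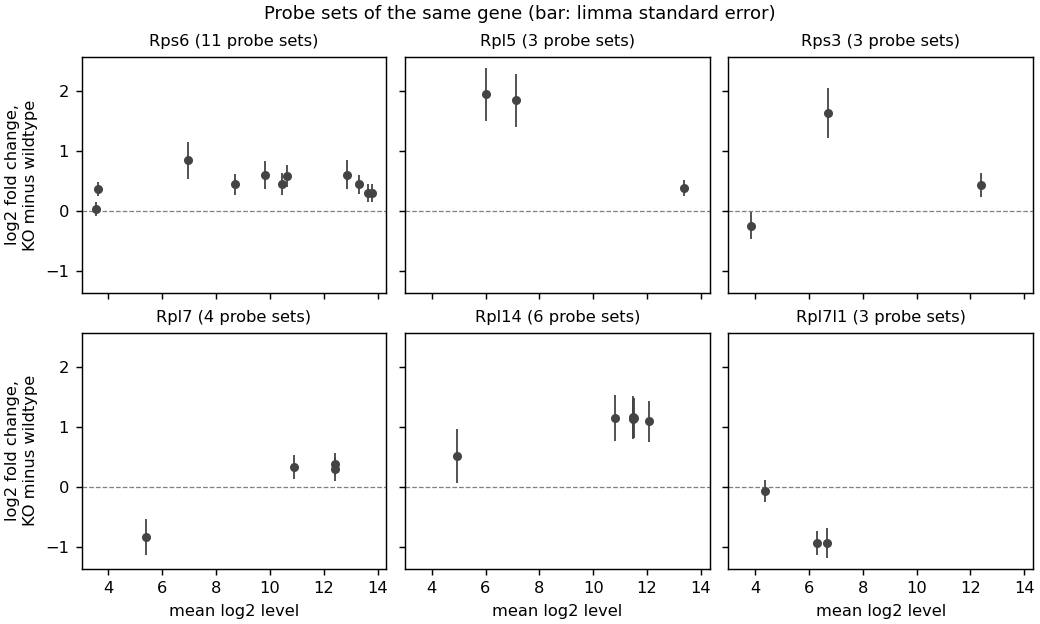
Log2 fold change, samples labelled KO minus wildtype, with limma standard error (bars) against mean log2 level for each probe set (points) of 6 genes. The Rps6 and Rpl14 probe sets lie on 1 side of 0, the dimmer Rpl5 probe sets reach 1.94, and the dimmest of Rps3 and Rpl7 lie below 0.

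The start of the transcript was examined because the TOP tract is the shared regulatory feature of these mRNAs. RefSeq promoter sequence (GRCm38.p6) was given for 62 of the 83 genes, 55 of them canonical. Within 20 bases on either side of the annotated start, a run of at least 8 C or T on the coding strand was present, before, across or after the start, in 47.3% of the 55 canonical genes and 15.9% of all 27025 promoters. A run of at least 8 A or G was present in 7.27% of the canonical genes and 17.3% of all. The run did not sort the genes by their difference: the median log2 fold change was 0.44 in the 26 canonical genes with it and 0.42 in the 29 without. Over the whole entries, from 250 bases before to 50 bases after the start, CCGGAAG, an ETS-type core, was found on either strand in 40% of canonical genes and 9.12% of all, and AAGATGGC, the YY1-type core, in 7.27% and 2.88%. Each match is a description of letters in the window.

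The windows of genes with large and with small differences are shown so that runs and differences can be compared gene by gene. Each runs 5′ to 3′ on the coding strand from 20 bases before the annotated start, which is the base at position 21. Capitals mark the longest C or T run, or the first where several are equally long. The first 4 had the largest and the next 4 the smallest differences of the canonical genes whose entry was eligible for display. Entries of a single chromosome were not eligible, while the shares and medians above used every chromosome. The last 2 are Rpl7l1, which lay lower, and Rps19bp1, which passed the test.
Rpl14, chr9:120571497-120571536, plus strand: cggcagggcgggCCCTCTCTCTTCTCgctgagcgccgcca
Rpl12, chr2:32961692-32961731, plus strand: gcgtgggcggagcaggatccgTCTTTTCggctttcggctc
Rps19, chr7:24884572-24884611, plus strand: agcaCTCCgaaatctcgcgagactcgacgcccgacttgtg
Rpl36a, chrX:134585634-134585673, plus strand: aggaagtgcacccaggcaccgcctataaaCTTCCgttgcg
Rps28, chr17:33824543-33824582, minus strand: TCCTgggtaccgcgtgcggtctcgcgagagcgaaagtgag
Rpl41, chr10:128549149-128549188, minus strand: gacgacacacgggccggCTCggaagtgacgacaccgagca
Rpl31, chr1:39367831-39367870, plus strand: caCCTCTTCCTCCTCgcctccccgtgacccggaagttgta
Rpl35a, chr16:33056433-33056472, plus strand: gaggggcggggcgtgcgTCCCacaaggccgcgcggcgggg
Rpl7l1, chr17:46782637-46782676, minus strand: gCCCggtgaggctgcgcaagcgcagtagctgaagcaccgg
Rps19bp1, chr15:80264287-80264326, minus strand: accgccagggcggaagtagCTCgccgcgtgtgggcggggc

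In Rpl14, which had the largest difference, the run of 14 bases spans the annotated start. In Rpl31, with a difference of 0.25, the run of 13 bases ends before the annotated start, at position 15. A shorter, unmarked run of C and T in the Rpl31 window spans the annotated start. Rps19, with 0.68, and Rps28, with 0.14, both have runs of 4 bases in these windows. In each an unmarked run is as long as the marked one, and in Rps28 the unmarked run spans the annotated start. An annotated start can lie some bases from the start used in marrow, so a missing run says only that it is not in these letters.

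Genes that work with the ribosomal proteins were set beside them. Factors of ribosome biogenesis, which make and assemble the subunits in the nucleolus, were mostly higher as well. Of 77 measured, 6 rose, 0 fell and 70 had a positive difference, with a median log2 fold change of 0.71 (0.46 without wildtype replicate 3). Over all probe sets tested 1.53% rose, 1.4% fell and 53.9% had a positive difference. Tsr2, which escorts newly made Rps26 in yeast, was at 6.05, 5.86 and 5.98 in the samples labelled KO, against 4.96, 4.49 and 4.32 in wildtype samples (log2 fold change 1.37, limma adjusted p = 0.0204). Ebna1bp2, a 60S assembly factor, rose by 1.55 on the log2 scale (limma adjusted p = 0.0271), and Gtpbp4, a nucleolar GTPase of 60S assembly, by 2.10 (limma adjusted p = 0.0307). The other 3 past the threshold were Sbds, Riok1 and Ddx10. The list means were 7.08, 7.15 and 7.35 in the samples labelled KO, against 6.72, 6.72 and 6.00 in wildtype samples, so wildtype replicate 3 was again the lowest.

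Of 23 other genes with TOP mRNAs, mostly translation factors, 0 passed the limma test, and 14 were higher at an unadjusted p under 0.05. At that p 0 were lower, where 8.87% of all probe sets were higher and 8.05% lower. The median was 0.62 (0.38 without wildtype replicate 3). Hnrnpa1, an RNA-binding splicing regulator, had 1.51 (limma adjusted p = 0.0711) and the initiation factor Eif4b 1.04 (limma adjusted p = 0.0906). Of 10 measured regulators of TOP mRNA translation and S6 phosphorylation, 1 rose, where 1.53% of all probe sets did. The gene that rose was Eif4ebp1, which encodes a repressor of translation that mTORC1 inactivates. It was at 9.89, 9.56 and 9.89 in the samples labelled KO, against 8.43, 8.26 and 8.82 in wildtype samples (log2 fold change 1.27, limma adjusted p = 0.0243). In Eif4ebp1 wildtype replicate 3 was the highest of the wildtype samples, unlike in the ribosomal protein genes.

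The mitochondrial ribosomal proteins, which build the separate ribosome of mitochondria, were mixed in direction. Of 75 measured, 3 rose and 2 fell, 54 had a positive difference, and the median was 0.23 (0.11 without wildtype replicate 3). Over all probe sets 1.53% rose, 1.4% fell and 53.9% had a positive difference. Mrpl9 had a log2 fold change of 1.31 (limma adjusted p = 0.0278), Mrps28 1.48 and Mrps30 1.23. Mrps25 fell by 1.27 (limma adjusted p = 0.0148) and Mrpl14 by 0.72 on the log2 scale. Of the 12 genes of the biogenesis, TOP regulator and mitochondrial lists that passed, 0 did so without KO replicate 2 and 2 to 8 without each other sample, while no log2 fold change moved by over 1.5 times. Of 13 measured proliferation genes, 0 passed the limma test and 1 had a positive difference, against 53.9% of all probe sets. The median of these genes was -0.25 (-0.47 without wildtype replicate 3). At an unadjusted p under 0.05, 1 was lower, where 8.05% of all probe sets were. As a sign of RNA quality, the 3′ minus 5′ log2 difference of the Gapdh control was 0.04, 0.04 and 0.28 in the samples labelled KO, against -0.01, 0.01 and -0.08 in wildtype samples. For the beta-actin control it was 0.12, 0.26 and 0.39 in the samples labelled KO, against 0.16, 0.19 and 0.07 in wildtype samples. The part of RNA quality in the results was not tested.

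**Figure D5:**
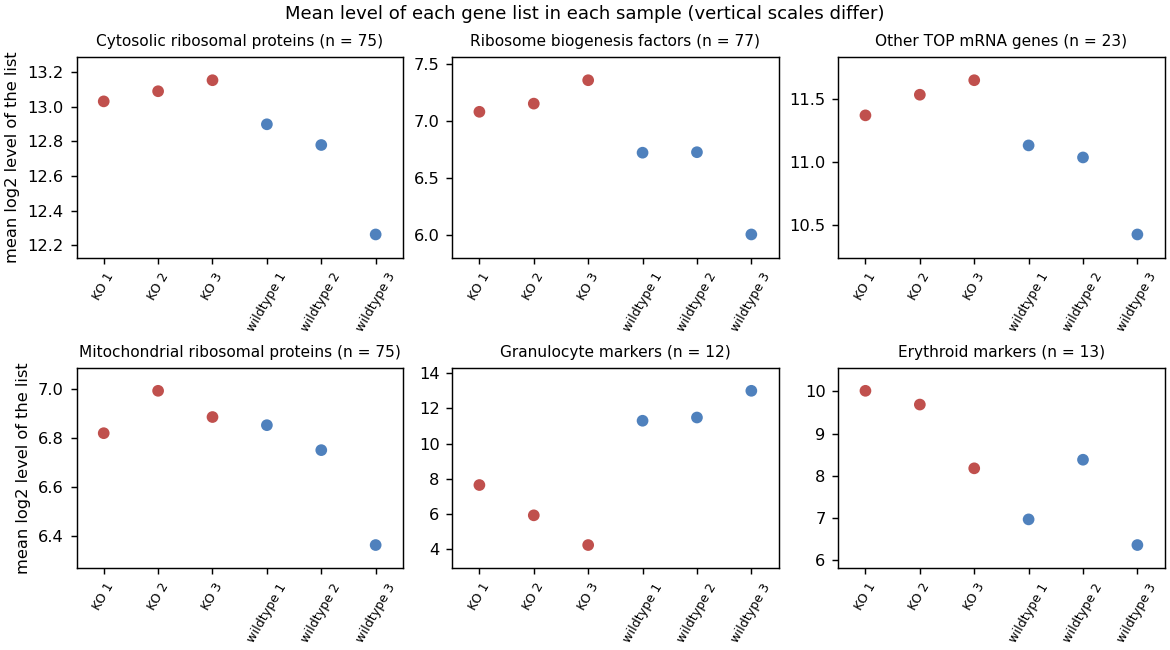
Mean log2 level of 6 gene lists in each of the 6 samples (red, labelled KO; blue, wildtype), each panel on its own vertical scale. Wildtype replicate 3 is the lowest sample for the cytosolic ribosomal proteins, biogenesis factors, other TOP mRNA genes, mitochondrial ribosomal proteins and erythroid markers, and the highest for the granulocyte markers.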

How the data were processed

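The values are log2 expression per probe set of Affymetrix MG-430_2.0 arrays that the authors made with RMA, per the submitters' processing notes. That method subtracts background, gives all arrays a common distribution by quantile normalization and condenses the probes into 1 value, so differences are relative to the rest of an array. The sources used here give no version. The deposited table also holds the authors' unadjusted and adjusted p-values and a signed fold change score, and the authors' unadjusted p-values differ from the fit below by at most 2.29e-05. The authors' annotated table names the group of each column, and replicate numbers come from the deposited series matrix, whose log2 values differ by at most 0.

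All 45037 probe sets other than the 64 array controls went without a filter into lmFit and eBayes of limma 3.58.1, run in R 4.3.3. The contrast was samples labelled KO minus wildtype, with two-sided p-values adjusted after Benjamini and Hochberg and a threshold of 0.05. The number of arrays limits the precision, and an exact permutation test of 3 against 3 samples cannot go below 0.1. The fit was tested on simulated data. A gene is represented by its brightest probe set. The members and lists were chosen with earlier results of these data known. Named genes are, by rule, calls, paralogs with their counterparts, Rpl5, Rpl11, Rps14, Rps19, the extremes of each subunit, the brightest probe sets, the most discordant ones, and 2 or 3 genes of each other list. Others were chosen after their values were seen. Alternatives changed the samples, scaling, probe sets, variance model and threshold.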

Additional observations from a re-analysis of the deposited data

How the results depend on the processing

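The count of members higher at the threshold, 1 in the reported fit, was 0 with the replicate block, with arrays centred on their medians, without moderation and at 0.01, 3 with a filter on dim probe sets and 7 at an adjusted p of 0.1. The 3 with that filter were Rps19bp1 and 1 probe set each of Rpl21 and Rpl5. It was 0 in each of the 6 fits that left out 1 sample. With an intensity trend 1 Rpl21 probe set passed in place of Rps19bp1 (limma adjusted p = 0.0496), so 0 genes passed at their brightest probe set, and at 0.1 there were 2 genes. The count lower, 0 in the reported fit, was 1 with further quantile normalization and at 0.1 (Rpl7l1), and 0 to 2 without each sample. The 2 were dim probe sets of Rps9 and Rpl7 without wildtype replicate 2. The authors' adjusted p gave the reported counts.

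The share of members higher at an unadjusted p under 0.05, added after seeing the data, was 38.3%. It was 24.8% with the replicate block, 18.2% with array weights, 10.7% without moderation and 9.35% to 57.9% without each sample, lowest without KO replicate 3 and highest without wildtype replicate 1. It was 14% without KO replicate 2 and 24.3% without KO replicate 1 or wildtype replicate 3. The share with a positive difference ran from 79.3% to 93.9% over the alternatives. The median log2 fold change of the members was positive in all alternatives, from 0.25 (without wildtype replicate 3) to 0.56 (without wildtype replicate 1), and was 0.29 after further quantile normalization and 0.29 without probe sets that can bind related sequences. Under the last, only 58 members remained, and Rpl3, Rpl7 and Rps16 gave -0.015, -0.84 and -0.050 at dim probe sets. Rpl3l ran from -0.18 without KO replicate 3 to 0.22 without KO replicate 2. None of these 4 passed the test. The centred arrays moved the median of all probe sets from 0.02 to 0.04.

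Replicate numbers do not pair the samples: the correlations of their deviations were -0.12, 0.05 and -0.02, and 0 of the samples labelled KO correlated best with their own number. With the replicate block Rps19bp1 had a limma adjusted p of 0.0654. The cause of these changes was not tested. Signal near the floor limits the dim members, and 3 samples a group limit all tests.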

Other observations

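T cell markers were high in a single wildtype sample. The mean level of 10 T cell markers was 4.54, 4.25 and 4.36 in the samples labelled KO, against 4.73, 8.23 and 4.67 in wildtype samples, so wildtype replicate 2 lay apart, and 0 of the 10 passed the limma test, with 0 at an unadjusted p under 0.05. Rag1, a recombinase of developing lymphocytes, was at 3.72, 3.17 and 3.33 in the samples labelled KO, against 3.12, 9.62 and 3.16 in wildtype samples. The canonical ribosomal proteins of that sample lay between the other wildtype samples in the median, at 0.14 above the wildtype mean on the log2 scale.

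Myc, a transcription factor that activates ribosomal protein and biogenesis genes, was at 9.44, 8.60 and 9.54 in the samples labelled KO, against 8.61, 8.13 and 7.12 in wildtype samples. Its groups overlapped, and the log2 fold change of 1.24 ± 0.42 (SE) did not pass the test (limma adjusted p = 0.201). Cnbp, which binds TOP mRNAs, was at 11.07, 11.44 and 11.44 in the samples labelled KO, against 10.41, 10.42 and 8.96 in wildtype samples (log2 fold change 1.39, limma adjusted p = 0.140). Wildtype replicate 3 was the lowest of the 6 samples in both genes. Myc and Cnbp were chosen after their values were seen.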
